A study of Mus musculus with 11 samples.

Results

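Prdm1, Prdm14, Tfap2c, Dppa3, Nanos3 and Kit are genes of the germ cell lineage, and the ChIP-seq peaks around them are described here in mouse epiblast stem cells (EpiSCs). A peak was assigned to a gene when its midpoint lay in the gene body or within 50 kb on either side of it in the genome build mm9. The windows of the 6 genes held 357 of the 1004445 peaks in 10 lists, with 179 in EpiSCs and 178 in the activin-free culture. The transcription factors (TFs) profiled were POU3F1, POU5F1, SOX2, OTX2 and ZIC2. Each carried the biotinylation sequence BLRP at its C-terminus and was collected with streptavidin. EpiSCs of strain 129/Sv were grown without feeder cells in DMEM/F12 with N2 and B27 supplements, activin at 20 ng/ml and Fgf2 at 10 ng/ml. The activin-free culture (EpiSCA in the labels) was the same line, from which activin had been withheld for 18 h before harvest. In both cultures, the cells were transfected transiently with a pCAGGS-BLRP-BirA plasmid, received fresh medium with biotin after 8 h and were fixed after 24 h. The TF was thus exogenous and was added to the endogenous TF of an uncloned population. Each TF was profiled in 1 library per culture, so no difference between TFs or cultures could be tested against replicates, and all of them are given as descriptions of these libraries. The input control was not analysed here.

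Primordial germ cells arise from epiblast cells that respond to BMP signals. PRDM1 (BLIMP1) represses the somatic programme in these cells, PRDM14 supports the return to pluripotency gene expression and epigenetic reprogramming, and TFAP2C (AP2γ) acts together with both. DPPA3 (STELLA) prevents excess DNA methylation in the oocyte and protects maternal methylation in the zygote, NANOS3 is an RNA-binding protein that maintains migrating germ cells, and KIT is the receptor for stem cell factor. OTX2, a TF of the epiblast and the anterior neural plate, is known to restrain entry into the germ line. EpiSCs resemble the epiblast after implantation.

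For each gene, the mm9 sequence is shown around the midpoint of the highest-ranked peak at the site with peaks in the most lists, and for Prdm1 also at the other sites with 3 TFs. Sites were tied in the number of lists at Prdm1, Prdm14 and Dppa3, and the one with the highest score percentile was taken. The stretches are referred to below, and a stretch need not lie under every peak of its site. The Prdm1 stretches chr10:44258316-44258516 and chr10:44248371-44248571 lie under OTX2 peaks only. Each printed stretch is the plus strand, 5′ to 3′, and is 201 bases long. Capitals mark the letters searched for the TFs present at the site on either strand, and runs of at least 20 bases of alternating purine and pyrimidine. For ZIC2 the letters were CCTGCTG. For OTX2 they were GGATTA, and as a second form GGTAAT. For SOX2 they were ACAAAG, its first variant ACAATG, its second variant ACAAAA and its last variant ACAATA. For both POU TFs they were the octamer ATGCAAAT and its variant form ATGCATAT.
Prdm1 upstream site with ZIC2, SOX2 and POU5F1 (chr10:44273331-44273531): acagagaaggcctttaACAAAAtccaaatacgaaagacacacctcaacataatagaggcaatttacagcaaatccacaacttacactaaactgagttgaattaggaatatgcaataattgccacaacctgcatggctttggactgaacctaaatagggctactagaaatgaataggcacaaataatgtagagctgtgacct
Prdm1 upstream site with OTX2, SOX2 and POU5F1 (chr10:44269570-44269770): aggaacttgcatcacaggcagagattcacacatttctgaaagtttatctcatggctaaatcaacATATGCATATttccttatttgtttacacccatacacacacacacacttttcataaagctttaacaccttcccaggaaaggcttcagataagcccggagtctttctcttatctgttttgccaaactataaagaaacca
Prdm1 upstream site with the highest OTX2 score in EpiSCs (chr10:44258316-44258516): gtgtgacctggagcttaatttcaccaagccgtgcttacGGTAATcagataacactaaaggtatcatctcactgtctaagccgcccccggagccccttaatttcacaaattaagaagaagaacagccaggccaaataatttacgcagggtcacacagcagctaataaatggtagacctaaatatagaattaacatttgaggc
Prdm1 upstream site with ZIC2, OTX2 and SOX2 (chr10:44248371-44248571): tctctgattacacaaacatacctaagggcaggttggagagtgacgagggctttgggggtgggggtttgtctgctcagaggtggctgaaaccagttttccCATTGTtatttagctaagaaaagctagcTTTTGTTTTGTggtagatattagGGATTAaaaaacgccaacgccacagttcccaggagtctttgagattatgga
Prdm14 downstream site with OTX2, SOX2 and POU3F1 (chr1:13064828-13065028): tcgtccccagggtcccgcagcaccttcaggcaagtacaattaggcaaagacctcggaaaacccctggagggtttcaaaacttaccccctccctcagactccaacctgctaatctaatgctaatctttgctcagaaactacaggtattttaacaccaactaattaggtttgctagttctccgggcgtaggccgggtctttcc
Tfap2c upstream site with ZIC2, OTX2 and SOX2 (chr2:172342144-172342344): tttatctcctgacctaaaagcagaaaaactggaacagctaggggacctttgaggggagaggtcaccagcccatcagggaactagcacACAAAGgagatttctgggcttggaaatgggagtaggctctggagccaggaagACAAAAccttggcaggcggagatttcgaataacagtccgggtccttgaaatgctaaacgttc
Dppa3 upstream site with POU5F1 and POU3F1 (chr6:122535880-122536080): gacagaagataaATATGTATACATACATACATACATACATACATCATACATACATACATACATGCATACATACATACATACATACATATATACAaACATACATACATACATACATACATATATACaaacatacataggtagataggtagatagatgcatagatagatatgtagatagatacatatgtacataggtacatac
Nanos3 upstream site with ZIC2 and OTX2 (chr8:86715631-86715831): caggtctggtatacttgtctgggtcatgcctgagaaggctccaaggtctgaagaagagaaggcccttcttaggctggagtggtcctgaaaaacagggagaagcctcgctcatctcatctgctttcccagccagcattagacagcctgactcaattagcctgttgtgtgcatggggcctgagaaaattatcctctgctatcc
Kit intron site with POU5F1 and POU3F1 (chr5:76022705-76022905): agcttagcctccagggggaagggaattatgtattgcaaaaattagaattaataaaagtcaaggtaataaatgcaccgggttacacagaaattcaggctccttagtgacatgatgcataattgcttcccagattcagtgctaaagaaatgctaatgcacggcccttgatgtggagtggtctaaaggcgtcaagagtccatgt

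The lists held 62457 to 126908 peaks, with median scores between 95.5 and 213. The score is the p-value given by MACS1.4 as -10 times its log10, and every peak had a score of at least 50. Library depth is unknown, and the score grows with the number of reads, so scores given below for both cultures are not comparable by themselves. Over all overlapping peaks of a TF, the median log2 ratio of the activin-free over the EpiSC score was 1.94 for POU5F1. It was 0.11 for ZIC2, 0.43 for OTX2, 0.43 for SOX2 and 0.17 for POU3F1. To compare genes, the number of peaks per 100 kb of window was ranked among all 22367 protein-coding genes and is given as a percentile for each list.

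ZIC2 and OTX2 had at least 1 peak in the windows of all 6 genes in both cultures. This was the usual state of a coding gene, since 93.1% and 92.3% of all coding genes held a ZIC2 peak and 93.3% and 95.6% held an OTX2 peak, in EpiSCs and without activin, respectively. SOX2 peaks were found in 6 windows in EpiSCs and in 5 without activin, where Nanos3 had none, against 75% and 85.6% of all coding genes. POU5F1 peaks lay in 4 windows in EpiSCs, with Tfap2c and Nanos3 at 0, and in all 6 without activin, against 77.3% and 89.5%. POU3F1 peaks were present in 3 windows in EpiSCs (Prdm1, Prdm14 and Kit) and in 4 without activin, where Dppa3 had 1, against 47.8% and 53%. Having a peak therefore did not set the 6 genes apart from other genes, whereas the number and the position of the peaks differed among them.

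The genes differed in which TF was dense around them. Nanos3 and Tfap2c had the most ZIC2 peaks, and Prdm1 had the most OTX2 and SOX2 peaks. The Dppa3 window ranked highest for POU5F1 in EpiSCs, mostly through peaks nearer to other genes. Kit ranked low for ZIC2, OTX2 and SOX2. Over the 6 windows, the EpiSC lists held 87 ZIC2, 50 OTX2, 20 SOX2, 14 POU5F1 and 8 POU3F1 peaks, and the activin-free lists held 73, 44, 30, 20 and 11, in the same order. The windows of Nanos3 (GC content of 51.3%, percentile 95.6) and Tfap2c (49.5%, percentile 87.2) were also richer in GC than those of most coding genes, with a median of 44.3%. The part of base composition in their ZIC2 counts was not tested.

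**Figure D1:**
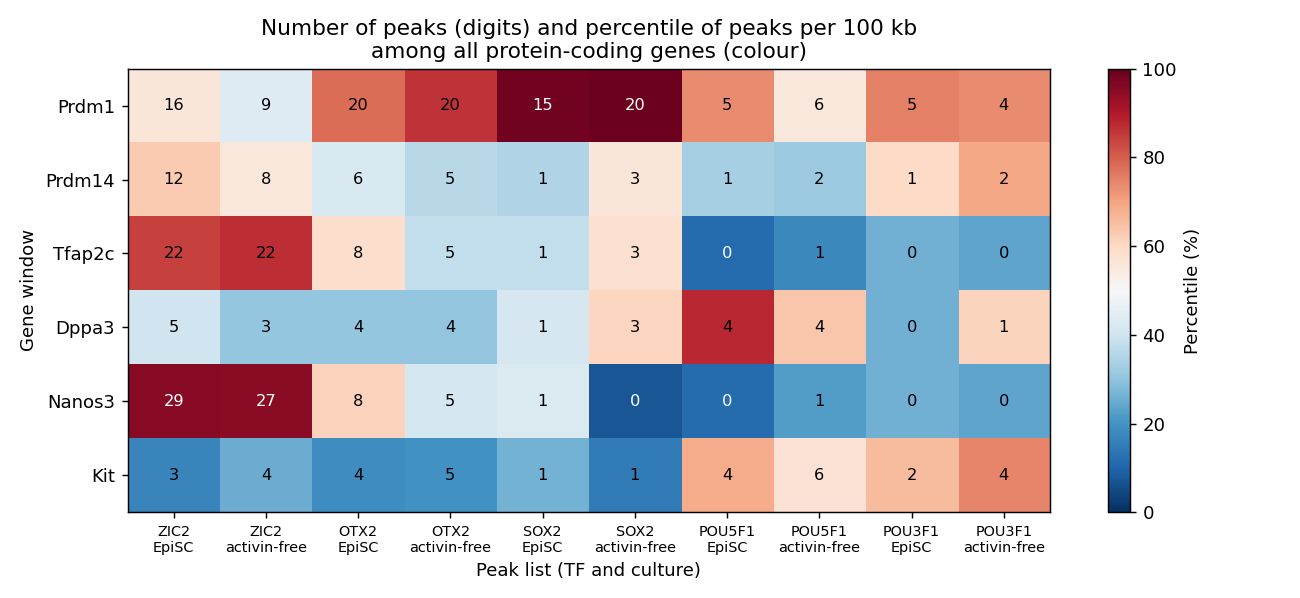
Number of peaks (digits) and percentile of peaks per 100 kb among all protein-coding genes (colour, %) for each of the 6 gene windows (rows) in each of the 10 lists (columns). Nanos3 and Tfap2c are at high percentiles for ZIC2 and Prdm1 for SOX2 in both cultures, and Kit is below percentile 30 for ZIC2, OTX2 and SOX2.

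Prdm1 (ENSMUSG00000038151.6) is on the minus strand, and its annotated record spans chr10:44156983-44248307. The record is long because a non-coding transcript starts 69.8 kb upstream of the start site of the coding transcripts, which is at 44178554. Distances are given from the coding start site, and positions called intronic upstream of it are introns of this non-coding transcript. The window of 191 kb contained no start site of another coding gene.

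SOX2 peaks at Prdm1 were among the densest of any gene. The window held 15 SOX2 peaks in EpiSCs (percentile 98.3) and 20 in the activin-free culture (percentile 99.0), which made up 75% and 66.7% of all SOX2 peaks in the windows of the 6 genes. No other window held more than 3 SOX2 peaks in either list. Of the 42 genes found from a list of 44 germ line genes, Prdm1 had the most SOX2 peaks per 100 kb in both cultures, at 7.84 and 10.45, beside list medians of 1.22 and 2.35 and medians over all coding genes of 1.44 and 2.09.

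Most of these SOX2 peaks were far upstream. In EpiSCs 11 of the 15, and in the activin-free culture 13 of the 20, were more than 60 kb upstream of the coding start site. They lay in the last 69.8 kb of the window, which is part of it only because of the non-coding transcript. In a window of 122 kb made from the coding transcripts alone, 4 and 7 SOX2 peaks remained, and the percentiles were 78.5 and 87.8. The densities were then 3.29 and 5.76 per 100 kb, below those of Kitl in the germ line list (6.49 and 7.04). Prdm1 was thus first in that list only with the longer window. The rank of Prdm1 for SOX2 thus rested on peaks 62.0 to 99.2 kb upstream, which only the non-coding transcript brings into the window.

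The upstream region contained SOX2 peaks that ranked high in the whole lists. The peak 62.0 kb upstream (chr10:44239927-44241177) had a score of 1479.6 without activin and was rank 18 of 87907 peaks, and its EpiSC counterpart scored 435 and was rank 972 of 63751. The peak 66.5 kb upstream scored 626 without activin and 507 in EpiSCs, the latter being rank 512. The peak 94.9 kb upstream scored 1129 without activin, at rank 91, and 435 in EpiSCs. All 3 were near the top of their lists in both cultures, with score percentiles from 98.5 to 99.98. The median score of the SOX2 peaks more than 60 kb upstream was 194 in EpiSCs and 249 without activin, against 96.1 and 113 for the other SOX2 peaks of the window.

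Peaks of other TFs coincided with SOX2 in the same region. At chr10:44272338-44274092, ZIC2, SOX2 and POU5F1 peaks overlapped in both cultures. ZIC2 scored 122 in EpiSCs and 218 without activin, SOX2 scored 435 and 1129, and POU5F1 scored 546 and 1546. The printed 201 bases of this site contained ACAAAA and none of the other letters searched. At chr10:44268836-44270360, centred 91.0 kb upstream and tied with it at peaks in 6 lists, OTX2, SOX2 and POU5F1 peaks overlapped in both cultures, with EpiSC scores of 211, 235 and 162 and activin-free scores of 348, 594 and 234, in this order. There the printed stretch held ATGCATAT on both strands, since these letters overlap their own reverse complement.

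OTX2 was also dense at Prdm1, with 20 peaks in each culture (percentiles 78.1 and 86.1). Its highest-scoring EpiSC peak in the 6 windows, at chr10:44257759-44259073, was 79.9 kb upstream of the start site and scored 471, with 561 in the activin-free list. The stretch printed for this site contained GGTAAT. A weak ZIC2 peak (score 58.6) overlapped this OTX2 peak in EpiSCs, but not the printed stretch. A SOX2 peak (score 249) overlapped the activin-free OTX2 peak, and the SOX2 peak listed there in EpiSCs (score 73.7) lay beside the others without overlapping them. At the upstream end of the gene record, chr10:44247923-44250811, an OTX2 peak (score 94.8) overlapped both a ZIC2 and a SOX2 peak in EpiSCs. A stronger OTX2 peak next to them (score 237), around which the sequence is printed, contained ACAATG, the SOX2 variant ACAAAA at 2 positions and the OTX2 letters GGATTA. The ZIC2 peak at that site, with a score of 56.6 in EpiSCs, had no counterpart without activin.

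The coding start site of Prdm1 itself was covered by a ZIC2 peak in both cultures, with scores of 295 and 424. A SOX2 peak lay at the upstream edge of this ZIC2 peak, overlapping it in EpiSCs and not without activin. The SOX2 midpoint was 0.989 kb upstream in EpiSCs (score 120.5) and 0.853 kb upstream without activin (score 50.9). The highest ZIC2 score of the window was over coding sequence, 17.5 kb downstream, at 874 in EpiSCs and 1029 without activin. The window held 16 and 9 ZIC2 peaks, 5 and 6 POU5F1 peaks and 5 and 4 POU3F1 peaks. The highest POU5F1 scores, 757 and 3100, came from a site, chr10:44124511-44125801 in EpiSCs, that is 53.4 kb downstream of the coding start site and outside the gene. A score of 3100 is shared by 3117 peaks of that list and so gives no order among them.

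**Figure D2:**
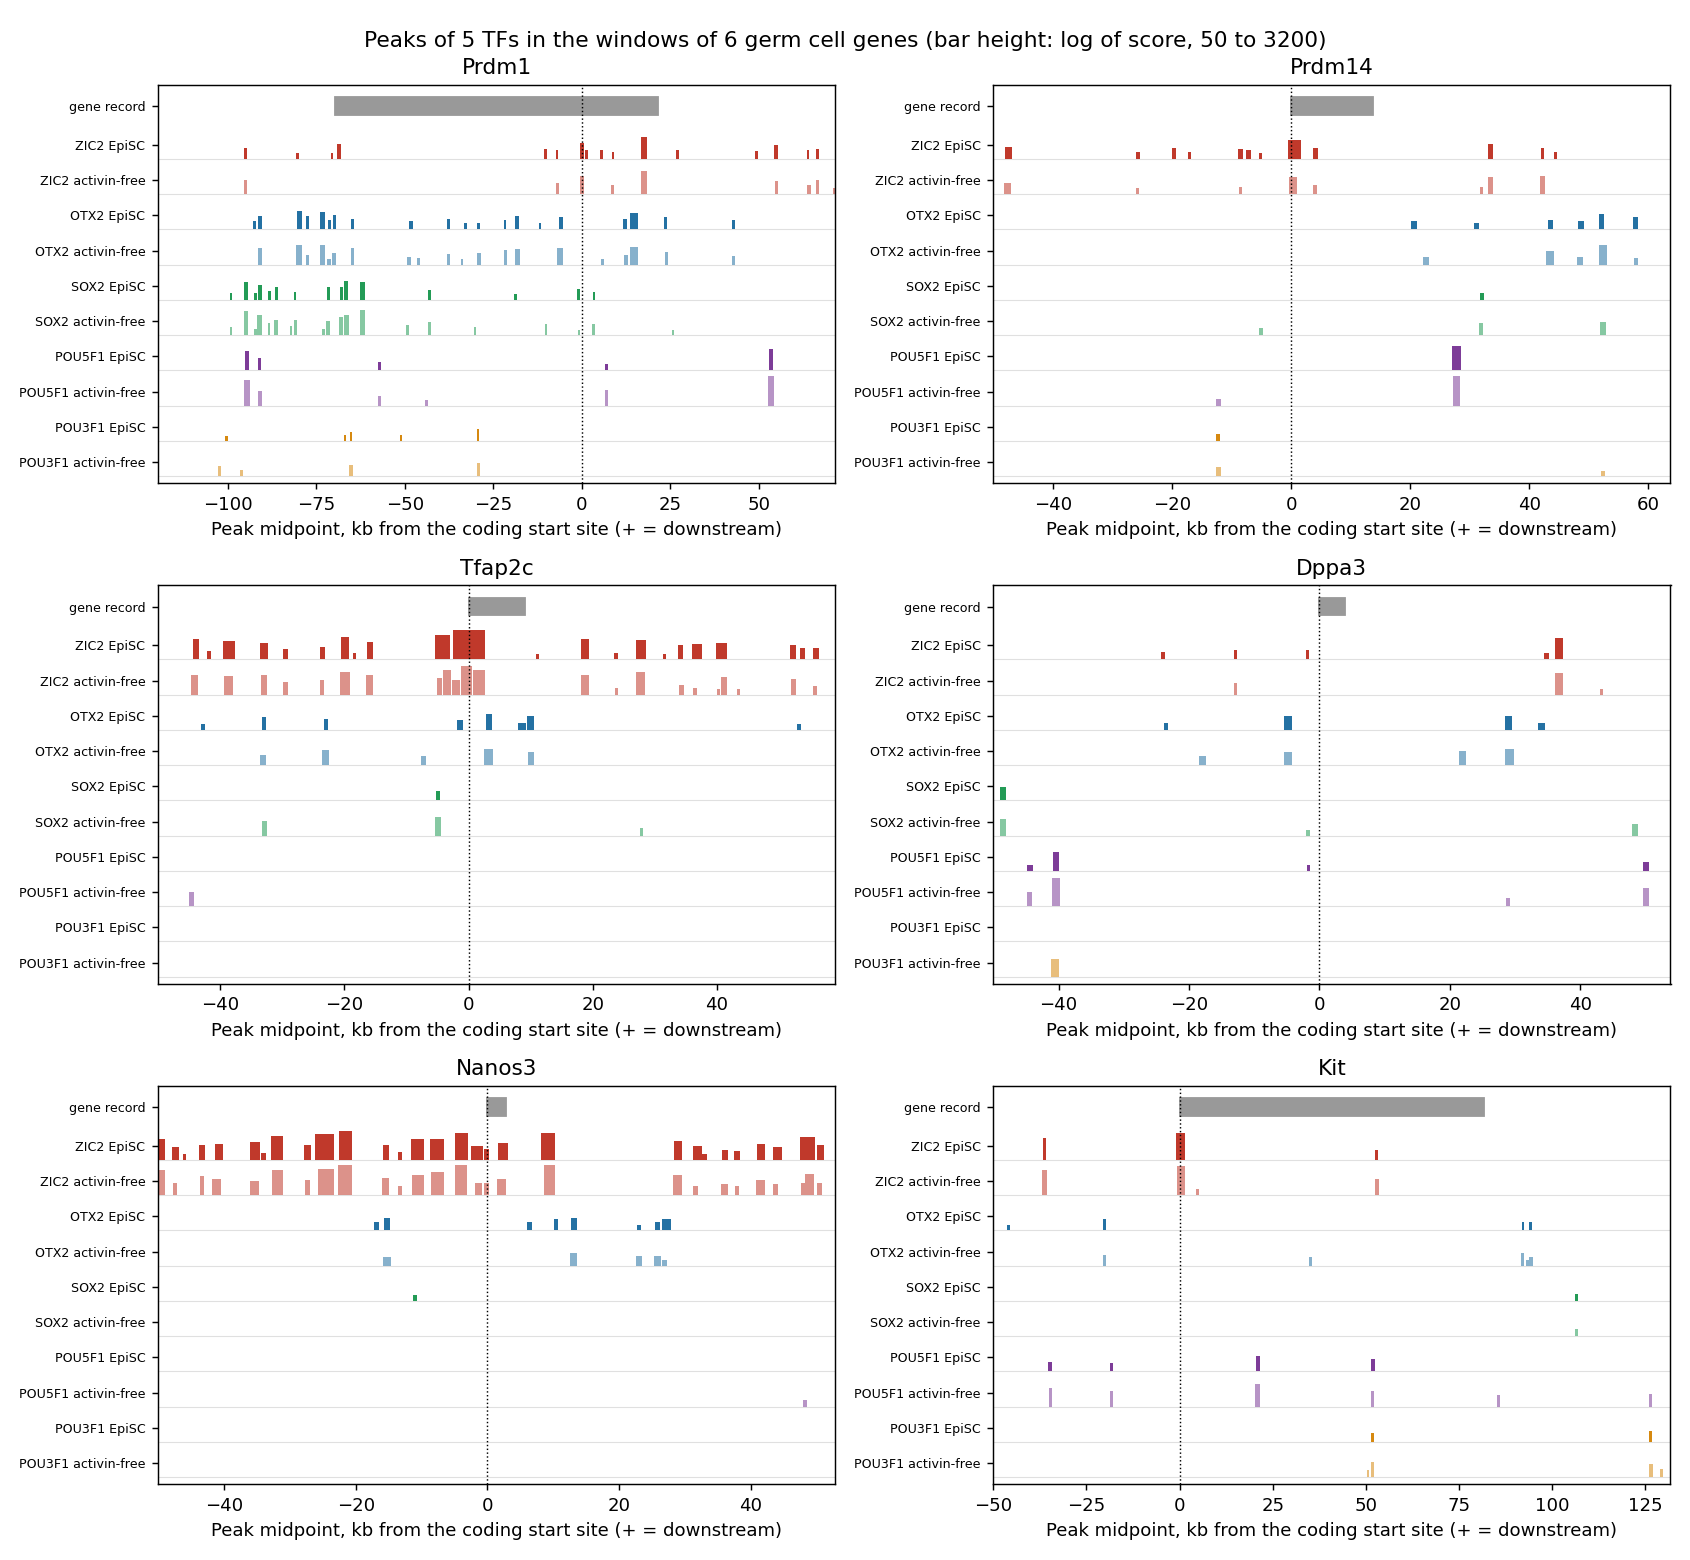
Peaks in the 6 gene windows by the distance of their midpoint from the coding start site (kb, positive downstream), with 1 line for each TF and culture, where bar width is peak width (narrow peaks are widened to stay visible), bar height grows with the logarithm of the score and the grey bar is the gene record. SOX2 peaks at Prdm1 gather more than 60 kb upstream, and ZIC2 peaks are spread over the whole Nanos3 and Tfap2c windows.

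Prdm14 (ENSMUSG00000042414.7, minus strand, chr1:13103538-13117244) had sparser peaks than Prdm1, at 21 in EpiSCs and 20 without activin. ZIC2 had 12 and 8 peaks, OTX2 6 and 5, SOX2 1 and 3, POU5F1 1 and 2, and POU3F1 1 and 2. All percentiles lay between 31.6 and 69.5, that is, in the middle of the coding genes. The window overlaps the neighbouring gene Ncoa2, a nuclear receptor coactivator.

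The OTX2 peaks at Prdm14 were all downstream of the gene, 20.6 to 57.9 kb from the start site. The highest-scoring one, at a site that spanned chr1:13064289-13065583, scored 280 in EpiSCs and 613 without activin. In EpiSCs it was an OTX2 peak alone, whereas SOX2 (score 185) and POU3F1 (score 53.3) peaks overlapped it in the activin-free lists. The printed stretch of this site held none of the letters of the 3 TFs. A POU5F1 peak 27.8 kb downstream (chr1:13088740-13090174) scored 1361 in EpiSCs, at percentile 98.5 and rank 956 of 62457, and 3100 without activin. No peak of another TF overlapped it in either culture. The start site was covered by ZIC2 alone, with scores of 496 and 347.

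Tfap2c (ENSMUSG00000028640.5, listed under its earlier symbol Tcfap2c, plus strand, chr2:172375093-172384122) was surrounded by ZIC2 peaks. It had 22 ZIC2 peaks in each culture (percentiles 84.3 and 87.0), 8 and 5 OTX2 peaks, 1 and 3 SOX2 peaks, and a single POU5F1 peak without activin. There were no POU3F1 peaks. Of the 22 EpiSC ZIC2 peaks, 17 overlapped an activin-free one (77.3%, beside 78.9% of the list). In the opposite direction, 21 of the 22 activin-free peaks overlapped an EpiSC one (95.45%, beside 91.2%).

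The start site of Tfap2c lay in the widest peak of all 6 windows. This EpiSC ZIC2 peak, chr2:172372524-172377731, was 5208 bp wide, wider than 99.8% of the peaks of its list, and had a score of 3100, which it shared with 772 peaks in all. In the activin-free list, the same stretch was occupied by 3 separate ZIC2 peaks, 1233, 1693 and 1980 bp wide, with scores of 245, 2734 and 1278. The one that covered the start site scored 2734. OTX2 flanked the gene, with a peak 3.3 kb downstream of the start site in an intron (scores 293 and 327) and one 10.0 kb downstream, beyond the gene (scores 228 and 201). A weaker OTX2 peak 1.41 kb upstream (score 119) overlapped the wide ZIC2 peak and was listed in EpiSCs only.

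The activin-free SOX2 list had a higher score and more peaks at Tfap2c than the EpiSC list. The peak 4.92 kb upstream scored 102 in EpiSCs and 519 without activin. This log2 ratio of 2.34 was the highest of the 18 SOX2 pairs in the windows, beside a median of 0.43 over all SOX2 pairs. The peak overlapped ZIC2 in both cultures. At chr2:172341574-172342719, ZIC2 and OTX2 peaks overlapped in both cultures, and a SOX2 peak with a score of 236 joined them without activin. The printed bases of this site contained ACAAAG and the variant ACAAAA.

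Dppa3 (ENSMUSG00000046323.2, plus strand, chr6:122576428-122580290) was the only one of the 6 genes whose start site lay in no peak. ZIC2 had 5 and 3 peaks in its window, OTX2 4 and 4, SOX2 1 and 3, POU5F1 4 and 4, and POU3F1 0 and 1. The POU5F1 count ranked at percentile 87.5 in EpiSCs and 63.9 without activin, where the whole list was larger. No peak lay in the body of the gene in either culture.

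The nearest peaks to Dppa3 were weak. A ZIC2 peak 1.75 kb upstream (score 99.3) overlapped a POU5F1 peak 1.68 kb upstream (score 59.3) in EpiSCs, and neither was listed without activin, where a SOX2 peak 1.78 kb upstream had a score of 56.05. An OTX2 peak 4.81 kb upstream scored 220 in EpiSCs and 199.9 without activin. The strongest POU5F1 peak, chr6:122535375-122536586, with scores of 494 in EpiSCs and 2222 without activin, was in an intron of Apobec1, which encodes a cytidine deaminase, and nearer to the start site of that gene (14.2 kb) than to Dppa3. In the printed sequence, 3 runs of alternating purine and pyrimidine of 32, 50 and 30 bases followed closely on each other, and the letters ATGCAAAT and ATGCATAT were absent. A ZIC2 peak 36.7 kb downstream of the start site scored 739 and 761. The other coding genes that start in this window are Apobec1 and Gdf3, a ligand of the TGFβ family.

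Nanos3 (ENSMUSG00000056155.5, minus strand, chr8:86697632-86700451) had the densest ZIC2 peaks of the 6 genes. Its window held 29 in EpiSCs (28.2 per 100 kb, percentile 95.6) and 27 without activin (26.3 per 100 kb, percentile 95.1). They were spread over the window, and 26 of the 29 EpiSC peaks overlapped an activin-free peak, as did all 27 in the opposite direction. Over the whole ZIC2 lists, 78.9% and 91.2% did. OTX2 had 8 and 5 peaks, SOX2 1 and 0, POU5F1 0 and 1, and POU3F1 none.

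The ZIC2 peak at the Nanos3 start site itself was modest, with scores of 119.6 in EpiSCs and 159.6 without activin (percentiles 37.6 and 43.4). Stronger ZIC2 peaks were found 3.92 kb upstream (score 2022 in EpiSCs, 3100 without activin) and 21.6 kb upstream (2683 and 3100). A peak at chr8:86690173-86692273 in EpiSCs scored 1897, and 3134 without activin, and was over coding sequence of the neighbouring gene 4930432K21Rik. The window is rich in genes, with Podnl1, Cc2d1a, 4930432K21Rik and Zswim4 overlapping it. The 5 OTX2 peaks present in both cultures comprised 4 in introns of 4930432K21Rik and 1 upstream of Nanos3 that overlapped ZIC2 (OTX2 scores 177 and 93.6). The printed stretch of this last site contained neither set of letters.

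Kit (ENSMUSG00000005672.6, plus strand, chr5:75970941-76052747) had few peaks for a window of 182 kb. ZIC2 had 3 and 4 peaks (percentiles 16.9 and 25.2), OTX2 4 and 5 (18.9 and 19.7) and SOX2 1 and 1 (26.2 and 15.1). POU5F1, with 4 and 6 peaks, and POU3F1, with 2 and 4, ranked between percentiles 57.2 and 74.2. Kit was thus the gene with the lowest rank for ZIC2 and OTX2 among the 6 in both cultures.

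Of the few ZIC2 peaks at Kit, those at 2 sites had high scores. The start site was in a ZIC2 peak with scores of 1811 and 2724 (percentiles 96.8 and 96.7), and a further ZIC2 peak 36.3 kb upstream scored 810 and 1399. The others were weaker, with a peak in an intron at 113 in EpiSCs (percentile 35.7) and 306 without activin (percentile 61.6), and a second intron peak, listed without activin only, at 54.1 (percentile 3.75). POU5F1 and POU3F1 shared a site in an intron, 51.9 kb from the start site, at chr5:76022277-76023301. POU5F1 scored 174 there in EpiSCs and 294 without activin, and POU3F1 scored 87.5 and 289. Its printed sequence held neither of the POU letters. All 4 EpiSC POU5F1 peaks in the window overlapped an activin-free peak, and the activin-free scores were higher at each of them, with log2 ratios of 2.23, 1.77, 1.67 and 0.76, beside a median of 1.94 over all POU5F1 pairs.

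The start sites separated ZIC2 from the other TFs. A ZIC2 peak covered the coding start site of 5 of the 6 genes in both cultures, all but Dppa3, beside 61.9% of all coding genes in EpiSCs and 60% without activin. No OTX2, SOX2, POU5F1 or POU3F1 peak covered any of the 6. This too was the usual state, since OTX2 peaks covered 9.43% and 9.02% of coding start sites and those of the other 3 TFs covered 0.729% to 5.11%.

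Sites with several TFs were not frequent in the windows. With peaks of different TFs joined when they shared at least 1 bp, 23 of 153 EpiSC sites (15.0%, 95% Wilson interval 10.23 to 21.55%) and 24 of 149 activin-free sites (16.1%, 11.07 to 22.85%) held 2 or more TFs. Among all sites of the genome, the shares were 18.3% and 23.9%. Intervals here cover counting error only, and neighbouring peaks of a window are not independent. Sites with 3 or more TFs numbered 3 in EpiSCs (1.96%) and 4 without activin (2.68%), against 2.74% and 5.05% of all sites. The 3 EpiSC sites were all upstream of Prdm1, and of the 4 activin-free sites 2 were upstream of Prdm1, 1 was at Prdm14 and 1 at Tfap2c. All of these Prdm1 sites lay in the part of the window that only the non-coding transcript brings in.

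By gene, Prdm1 had 11 sites of 47 with 2 or more TFs in EpiSCs and 9 of 48 without activin. Prdm14 had 0 of 21 and 3 of 16, Tfap2c 5 of 26 and 6 of 24, Dppa3 3 of 11 and 2 of 13, Nanos3 3 of 35 and 2 of 30, and Kit 1 of 13 and 2 of 18. The pairs also differed between genes. At Tfap2c and Nanos3, each such site included ZIC2 in both cultures, while at Kit each joined POU5F1 and POU3F1. At Prdm1, SOX2 and OTX2 were in most of the combinations. No ZIC2 peak of the 6 windows overlapped a POU3F1 peak in either culture, and over all ZIC2 peaks 1.16% and 1.89% did.

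Shares of single pairs of TFs rest on small counts. In EpiSCs, 5 of 20 SOX2 peaks (25%) overlapped ZIC2, at Prdm1, Tfap2c and Nanos3, against 5.27% of all SOX2 peaks. Without activin, 5 of 30 did (16.7%), at Prdm1, Prdm14 and Tfap2c, against 6.09%. For POU5F1, 1 of 14 EpiSC peaks (7.14%, at Kit) and 4 of 20 activin-free peaks (20%, at Dppa3, Kit and Prdm14) overlapped POU3F1, against 51.7% and 46.3% of all POU5F1 peaks. These are shares in windows chosen for their genes and carry no test.

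The total of peaks per gene was close in the cultures for 5 of the genes, and Kit had more without activin, at a ratio of 1.43. Prdm1 had 61 peaks in EpiSCs and 59 without activin, Prdm14 21 and 20, Tfap2c 31 and 31, Dppa3 14 and 15, Nanos3 38 and 33, and Kit 14 and 20. None of the 6 genes had at least 2 times as many peaks in one culture as in the other. Among 22057 coding genes with an EpiSC peak, 2.51% had at least 2 times as many without activin and 0.168% at most 1/2 as many, and the median ratio was 1.04. The lists differed in size between cultures, most of all for POU5F1, with 62457 and 126908 peaks. When every list was shortened to its 50000 best peaks, Kit held 8 peaks in EpiSCs and 7 without activin, Prdm14 6 and 8, Prdm1 35 and 28, Nanos3 23 and 17, Dppa3 6 and 9, and Tfap2c 19 and 19. The excess at Kit was thus not present in lists of equal length, and the order of the cultures also turned at Prdm14. Among peaks with a score of at least 100, Kit held 7 and 13, Dppa3 6 and 11, Prdm1 33 and 42, Prdm14 11 and 9, Tfap2c 23 and 25, and Nanos3 28 and 27. The direction at Prdm1, Prdm14 and Kit therefore depended on which peaks were counted. In each of these counts, Nanos3 had more peaks in EpiSCs and Dppa3 more without activin. Tfap2c was equal except among peaks with a score of at least 100.

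Most EpiSC peaks in the windows were shared with the activin-free list of the same TF. An activin-free peak overlapped 63 of 87 for ZIC2 (72.4%, interval 62.2 to 80.7%), beside 78.9% of all ZIC2 peaks. The shares were 35 of 50 for OTX2 (70%, 56.2 to 80.9%) beside 78.1%, and 18 of 20 for SOX2 (90%, 69.9 to 97.2%) beside 77.6%. For POU5F1, 13 of 14 were overlapped (92.9%, 68.5 to 98.7%) beside 98.3%, and for POU3F1 5 of 8 (62.5%, 30.6 to 86.3%) beside 82.6%. The share over all peaks lay within the interval for each of the 5 TFs in this direction, so a difference from the whole list was not detectable at these counts. In the opposite direction, an EpiSC peak overlapped 68 of 73 activin-free peaks for ZIC2 (93.2%, 84.95 to 97.0%) beside 91.2% of the list, 35 of 44 for OTX2 (79.5%, 65.5 to 88.8%) beside 67.5%, and 18 of 30 for SOX2 (60%, 42.3 to 75.4%) beside 55.9%. The share was 13 of 20 for POU5F1 (65%, 43.3 to 81.9%) beside 47.1%. For POU3F1 it was 5 of 11 (45.5%, 21.3 to 72.0%) beside 86.8%, so that for this TF the share over the list lay above the interval. These 11 peaks were weak, with a median score of 107 against 213 over the list. The part of peak strength in this share was not tested. The 6 activin-free POU3F1 peaks without an EpiSC counterpart were at Prdm1, Prdm14, Dppa3 and Kit.

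**Figure D3:**
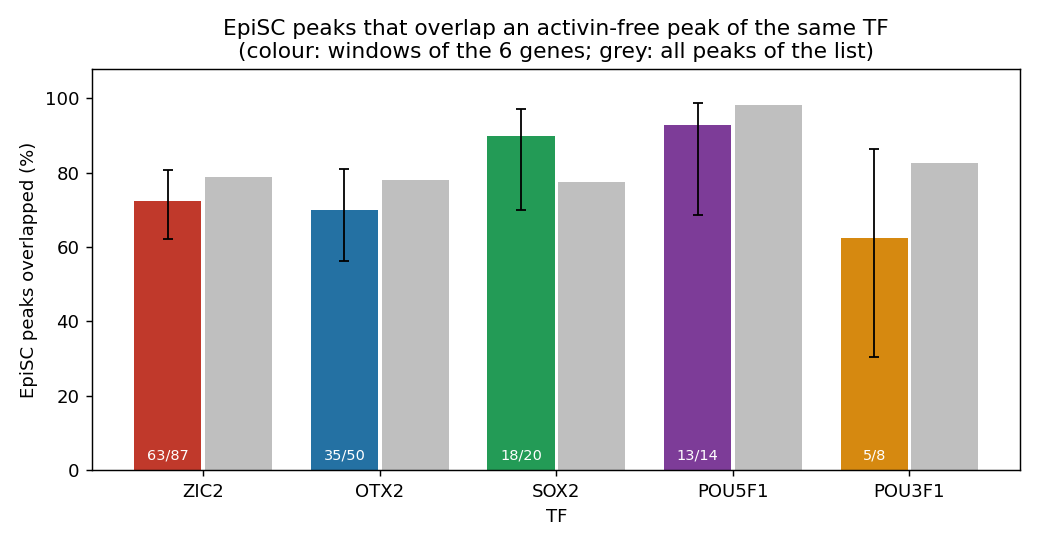
Percentage of EpiSC peaks that overlap an activin-free peak of the same TF, for peaks in the windows of the 6 genes (coloured bars, counts inside, error bars are 95% Wilson intervals) and for all peaks of the list (grey bars). The shares range from 62.5% for POU3F1 to 92.9% for POU5F1, and each interval includes the share over all peaks.

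The genes differed in how many ZIC2 peaks were shared. At Nanos3, 89.7% of the EpiSC ZIC2 peaks (73.6 to 96.4%) overlapped an activin-free ZIC2 peak, whereas at Prdm1 8 of 16 did (50%, 28 to 72%), below the 78.9% of the list. The 8 ZIC2 peaks listed at Prdm1 in EpiSCs only had scores from 56.6 to 263. The EpiSC ZIC2 peaks at Prdm1 were weak, with a median score of 94.3, against 271 at Nanos3 and 169.9 over the list. The part of peak strength in the difference between these genes was not tested. For OTX2, 17 of 20 EpiSC peaks at Prdm1 were shared (85%), and 14 of 15 for SOX2 (93.3%). When all 10 lists were joined, the windows held 170 sites, of which 121 were present in both cultures, 27 in EpiSCs only and 22 in the activin-free culture only. The same set of TFs was listed in both cultures at 97 of them. Sites of all 10 lists were not counted over the whole genome, so these counts describe the windows only.

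The change in score of the shared peaks was close to that of the whole list for ZIC2 and POU5F1, below it for OTX2 and above it for SOX2 and POU3F1. The median log2 ratio of the activin-free over the EpiSC score was 0.14 for the ZIC2 pairs in the windows and 0.11 for all ZIC2 pairs. It was 0.15 and 0.43 for OTX2, 0.85 and 0.43 for SOX2, 1.77 and 1.94 for POU5F1 and 0.65 and 0.17 for POU3F1, respectively. The activin-free score was the higher one in 16 of 18 SOX2 pairs, 13 of 13 POU5F1 pairs and 5 of 5 POU3F1 pairs in the windows, and in 71.5%, 98.3% and 58.8% of all pairs. For OTX2 it was the higher one in 21 of 35 pairs, beside 71.2% of all. Of the 18 SOX2 pairs, 14 were at Prdm1, so the SOX2 median mainly describes that window. The 5 POU3F1 pairs were at Prdm1 (2), Kit (2) and Prdm14 (1). Whether a difference in read depth between the libraries took part in these ratios was not tested.

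**Figure D4:**
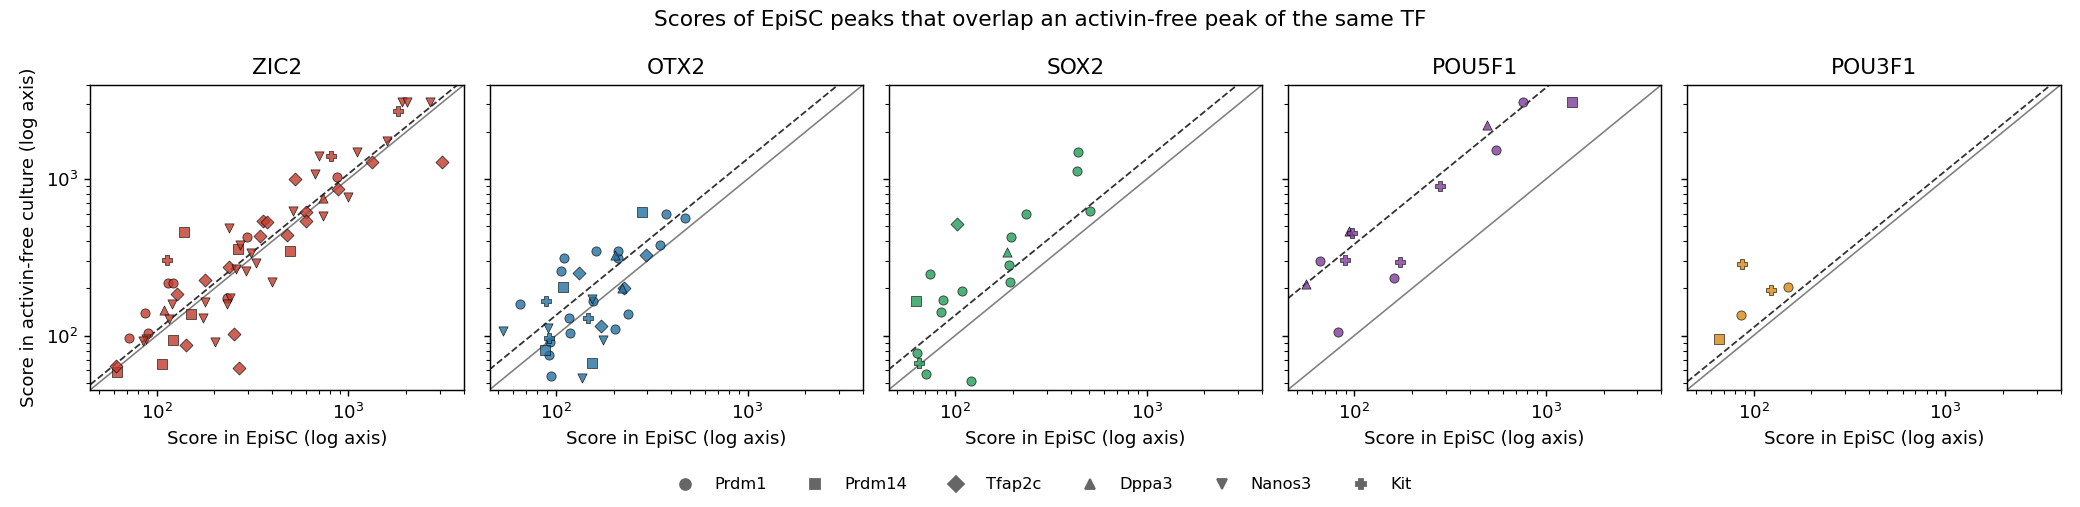
Score of each EpiSC peak in the 6 windows (horizontal, log axis) against the score of the overlapping activin-free peak of the same TF (vertical, log axis), with 1 panel for each TF and 1 symbol for each gene. The solid line marks equal scores and the dashed line the median ratio over all pairs of the list (1.94 on the log2 scale for POU5F1, 0.11 to 0.43 for the other TFs), and all 13 POU5F1 points lie above equality.

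Binding letters were searched within 100 bp of each peak midpoint. SOX2 letters were present in 19 of 20 EpiSC SOX2 peaks in the windows (95%, 76.4 to 99.1%) and in 26 of 30 activin-free ones (86.7%, 70.3 to 94.7%), beside 85.9% and 85.1% of all SOX2 peaks and 56.8% and 56.5% of stretches of the same length 1000 bp away. OTX2 letters were found in 17 of 50 (34%, 22.4 to 47.9%) and 16 of 44 (36.4%, 23.8 to 51.1%), beside 28.6% and 27.3% of all OTX2 peaks and 13.7% and 13.4% of the neighbouring stretches. At Prdm1, 14 of the 15 EpiSC SOX2 peaks and 8 of the 20 OTX2 peaks had such letters. CCTGCTG was in 13 of 87 (14.9%, 8.95 to 23.9%) and 13 of 73 (17.8%, 10.7 to 28.1%) ZIC2 peaks, beside 19.1% and 21.0% of all ZIC2 peaks and 6.35% and 6.44% of the neighbouring stretches. The share over the whole list lay within the interval for each of these 3 TFs in both cultures.

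Alternating runs were the commoner feature of the POU5F1 peaks in the windows. The octamer letters ATGCAAAT or ATGCATAT were in 4 of 14 EpiSC POU5F1 peaks (28.6%, 11.7 to 54.7%) and in 3 of 20 activin-free ones (15%, 5.24 to 36.0%), beside 18.6% and 13.6% of all POU5F1 peaks and 3.27% and 3.33% of the neighbouring stretches. None of the 8 and 11 POU3F1 peaks had them, beside 8.84% and 9.36% of all, and by the Wilson interval 0 of 8 allows a share of up to 32.4%. Runs of at least 20 bases of alternating purine and pyrimidine, of which the printed Dppa3 sequence is an example, were in 7 of 14 EpiSC POU5F1 peaks (50%, 26.8 to 73.2%) and 10 of 20 activin-free ones (50%, 29.9 to 70.1%), beside 29.6% and 21.5% of all POU5F1 peaks and 4.41% and 4.14% of the neighbouring stretches. In EpiSCs these peaks were at Dppa3 (3), Kit (3) and Prdm1 (1). In peaks of the other TFs in EpiSCs, alternating runs were present in 1 of 87 for ZIC2, 0 of 50 for OTX2, 0 of 20 for SOX2 and 1 of 8 for POU3F1. Over all peaks of these lists, the shares were 0.685%, 0.704%, 0.658% and 4.16%. Without activin, the counts were 0 of 73, 1 of 44, 0 of 30 and 2 of 11, beside 0.664%, 0.846%, 0.924% and 5.05%.

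The 36 further genes of the germ line list were described in the same way to place the 6 among them. Of the 42 genes found in all, 41 held a ZIC2 peak, 42 an OTX2 peak, 34 a SOX2 peak, 36 a POU5F1 peak and 20 a POU3F1 peak in EpiSCs. These were 97.6%, 100%, 80.95%, 85.7% and 47.6% of the list, beside 93.1%, 93.3%, 75%, 77.3% and 47.8% of all coding genes. Without activin the counts were 41, 41, 37, 40 and 23. These were 97.6%, 97.6%, 88.1%, 95.2% and 54.8%, beside 92.3%, 95.6%, 85.6%, 89.5% and 53% of all coding genes. The median number of ZIC2 peaks per 100 kb was 9.66 in EpiSCs and 7.86 without activin, beside 6.80 and 5.86 over all coding genes. For OTX2 the median was 6.62 and 5.85 beside 6.21 and 5.72, and for SOX2 1.22 and 2.35 beside 1.44 and 2.09. For POU5F1 it was 1.82 and 2.96 beside 1.43 and 2.83, and for POU3F1 0 and 0.575 beside 0 and 0.655. Utf1, a chromatin-associated factor of pluripotent cells, had the highest ZIC2 density of the list in both cultures (29.6), just above Nanos3. Kitl, which encodes the ligand of KIT, had the highest POU3F1 density in both cultures (8.66 and 8.12) and the highest POU5F1 density without activin (9.74), while Smad5, a mediator of BMP signals, had the highest POU5F1 density in EpiSCs (8.61). For OTX2, the highest densities were at the BMP receptor gene Bmpr1a in EpiSCs (18.2) and at Dnd1, which encodes an RNA-binding protein of germ cells, without activin (15.6), with Prdm1 at 10.45 in both.

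The 6 genes were not alike in their pattern over the 10 lists. The mean absolute difference in percentile was lowest between Tfap2c and Nanos3, at 8.61, and highest between Prdm1 and Nanos3, at 49.5. For each gene, the closest coding genes were also sought among all 22367. Among so many, some are bound to be closer than the few other members. Their values therefore say nothing on how alike the 6 genes are. The closest were Exoc6b and Tmem123 for Prdm1 (4.32 and 4.73), Psmc1 and Gpr183 for Prdm14 (3.07 and 4.81), Sars and Stk32c for Tfap2c (2.23 and 2.62), Heatr1 and Serf1 for Dppa3 (5.88 and 6.20), C1qc and C1qb for Nanos3 (1.12 and 1.74), and 2810407A14Rik and Grin2b for Kit (5.74 and 5.85). The points behind these differences share libraries, and windows with 0 peaks share a percentile.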

How the data were processed

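Each TF was profiled by ChIP-seq in 1 library for each of 2 cultures, and the input library was not used. The authors aligned the reads (Bowtie2 and mm9 in the submitters' processing notes) and called peaks with MACS1.4 against input, as the study's methods state. The deposited lists give the position and the MACS score of each peak, which is -10 times the log10 of its p-value. Read counts and depth are unknown from these lists, and starts were converted to count from 1. Overlaps used only peaks on the assembled chromosomes.

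Genes were taken from GENCODE vM1 (NCBIM37, the same chromosome lengths as mm9). Tfap2c was found there as Tcfap2c through RefSeq synonyms. The members, the list of 44 germ line genes (42 found, not Tdrd5 and Rhox5) and the alternatives were chosen with earlier results of these data known. Named were the 6 genes, coding neighbours nearer to a described peak, the extremes of the germ line list, and for each gene the 2 coding genes with the lowest mean absolute difference in percentile over the 10 lists. Described in full were the site with peaks from the most lists, sites with 3 or more TFs and the peaks nearest to the start site. Other peaks, such as those with the highest scores, were chosen after their values were seen. Sequences were read from mm9. With 1 library per TF and culture no test was made. Overlaps needed 1 bp, and shares have 95% Wilson intervals. On simulated data with 20000 peaks, 100% of planted overlaps were recovered. Alternatives were a score of at least 100, the 50000 highest-scoring peaks of each list, 25 kb in place of 50 kb, any base of a peak inside the window, a reciprocal overlap of 50% and gene bodies from coding transcripts only. Scripts ran in Python 3.11.15 with pysam 0.24.0, matplotlib 3.10.9, scipy 1.17.1 and numpy 2.4.6.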

Additional observations from a re-analysis of the deposited data

How the results depend on the processing

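Counting a peak by any base inside the window kept 29 of 29 values within their limits. With scores of at least 100, the EpiSC windows held 28 OTX2, 11 SOX2, 7 POU5F1 and 2 POU3F1 peaks and the activin-free windows 29 OTX2, 19 SOX2 and 6 POU3F1 peaks. The overlap with the activin-free list was then 85% for ZIC2, 82.14% for OTX2, 100% for POU5F1 and 100% for POU3F1, and 10 EpiSC and 15 activin-free sites held 2 or more TFs. When lists were shortened to their 50000 best peaks, the EpiSC windows held 41 ZIC2, 28 OTX2 and 0 POU3F1 peaks, so that POU3F1 had no overlap to give, and the activin-free windows held 39 ZIC2, 21 OTX2, 19 SOX2, 7 POU5F1 and 2 POU3F1 peaks. The overlap was 82.93% for ZIC2 and 63.64% for POU5F1, and 9 and 8 sites held 2 or more TFs. With 25 kb on either side, the counts were 46 ZIC2 and 9 POU5F1 peaks in EpiSCs and 35 ZIC2, 11 POU5F1 and 5 POU3F1 peaks without activin. With a reciprocal overlap of 50%, 9 and 14 sites held 2 or more TFs. Gene bodies from coding transcripts only, an alternative chosen after seeing the data, gave 9 SOX2 and 4 POU3F1 peaks and 15 sites with 2 or more TFs in EpiSCs, 17 SOX2 peaks without activin and a POU3F1 overlap of 100%. The Prdm1 window then held 31 peaks in EpiSCs and 32 without activin. Except for the first, these alternatives keep fewer peaks or fewer overlaps by construction. No paired analysis was possible because the results come from no test. Library depth, unknown here, limits which weak peaks could be listed.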
